A study of Mus musculus with 6 samples.

Results

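The integrated stress response genes described here are Atf4, Ddit3, Atf5, Atf3, Nupr1, Ppp1r15a, Trib3, Sesn2, Asns and Chac1. They are 10 of 18193 genes with a probe set of their own, and have 17 probe sets out of 45037 probe sets that are not controls on the Affymetrix Mouse Genome 430 2.0 array. A probe set was taken if the platform annotation gave it to one of these symbols alone, and each gene had at least 1. The genes were chosen by what they do and with their differences between these same arrays already known, so the differences of the members are given as a description, without a test. RNA came from 32D cells, an interleukin-3 dependent line from C3H/HeJ mouse bone marrow infected with Friend leukaemia virus. The 3 Nup98::Nsd1 samples were 32D cells transduced with the Nup98::Nsd1 fusion gene of acute myeloid leukaemia, and the 3 mock samples were mock-transduced 32D cells, titled for the MSCVpuro retroviral vector. The labels used here do not say whether the transduced cells were a clone or a pool, nor whether the samples of a group were separate cultures, so the p-values reflect how far these arrays scatter, and that scatter may be technical.

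The integrated stress response starts with kinases that phosphorylate the translation initiation factor eIF2 when amino acids or heme run short, when unfolded protein builds up in the endoplasmic reticulum, or when viral RNA is sensed. Bulk protein synthesis then slows, while the mRNA of the transcription factor ATF4 is translated more because of short reading frames upstream of its coding sequence. ATF4 switches on genes for amino acid supply and further transcription factors, and the response is ended by a phosphatase subunit, encoded by Ppp1r15a, that brings eIF2 back to its active form. In blood progenitors the response is known for linking nutrient and protein-folding stress to survival. An array measures mRNA only, so control of ATF4 by translation is outside these data.

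ATF4 and its C/EBP partners bind a composite site whose core was searched as TGATGNAA, and the cAMP response element was searched as TGACGTCA, each on both strands. The promoters, 250 bases before to 50 after the gene start, came from RefSeq (GRCm38.p6), and all 10 members were found there with 11 promoters. The composite core was in promoters of 5 of 10 members, Trib3, Atf3, Chac1, Asns and Nupr1, and in 3.97% of all 32851 promoters of this length. The cAMP response element was in 1 member, Ppp1r15a, and in 1.79% of all promoters. With only the 150 bases before the start, the core was in 3 members, Atf3, Asns and Nupr1, and in 2.23% of all promoters. The matches are printed 5′ to 3′ along the gene strand with the motif in capitals, because they set the members with a match beside the values that follow.
Trib3, chr2:152344029-152344056, minus strand, match starting 14 bases past the start: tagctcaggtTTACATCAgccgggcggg
Atf3, chr1:191183416-191183463, minus strand, match from 110 bases before the start: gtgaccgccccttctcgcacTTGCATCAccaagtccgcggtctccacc
Chac1, chr2:119351029-119351076, plus strand, match from 193 bases before the start: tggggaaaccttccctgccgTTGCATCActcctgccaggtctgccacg
Asns, chr6:7693210-7693252, minus strand, match from 23 bases before the start: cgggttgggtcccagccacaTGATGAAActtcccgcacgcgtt
Nupr1, chr7:126625553-126625600, minus strand, match from 110 bases before the start: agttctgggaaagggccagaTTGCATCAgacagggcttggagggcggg
Ppp1r15a, chr7:45526269-45526300, minus strand, cAMP response element from 12 bases before the start: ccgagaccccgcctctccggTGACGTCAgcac
A match is a stretch of letters and not a measured binding site. The promoters of Ddit3, Atf4, Atf5 and Sesn2 held neither motif in this window.

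The values are MAS5 signals, a linear measure of brightness, per the submitters' processing notes, and MAS5 calls each probe set Present, Marginal or Absent. Between 47.6% and 48.2% of probe sets were Present on the Nup98::Nsd1 arrays and between 45.1% and 45.9% on the mock arrays. The Actb control, whose 3′ to 5′ ratio reflects RNA integrity and labelling, stood at 1.47 ± 0.026 on Nup98::Nsd1 arrays and 1.18 ± 0.030 on mock arrays (SD, n = 3 each), and its part in the results was not tested. The signals of hybridization controls, added at fixed amounts, averaged 5963 ± 58.9 on Nup98::Nsd1 arrays and 4632 ± 222 on mock arrays. Of 10 myeloid progenitor markers 8 were Present on all 6 arrays and 1, Kit, on none. Their summed signal was 44394 to 44780 on Nup98::Nsd1 arrays and 70778 to 76168 on mock arrays, and the part of that difference was not tested. The markers did not move together. Mpo averaged 5183 in Nup98::Nsd1 cells and 19095 in mock cells, and Ms4a3 2502 and 12826. In the fit described below, Mpo, Ms4a3, Prtn3, Elane, Myb and Csf2rb2 were called lower, Spi1 and Csf2rb higher, and Ctsg was not called. The T cell markers Cd3e, Cd3g and Cd4, the B cell markers Cd79a and Pax5 and the fibroblast markers Col1a2, Pdgfra and Dcn were Present on no array. No marker of these 3 cell types was Present on all 6, and the summed T cell markers gave 153 to 177 in Nup98::Nsd1 cells and 151 to 186 in mock cells. The B cell markers summed to 77.9 to 193 in Nup98::Nsd1 cells and 68.8 to 132 in mock cells, and the fibroblast markers to 120 to 150 in Nup98::Nsd1 cells and 96.5 to 158 in mock cells. Of 4 macrophage markers 3 were Present on all 6 arrays, with C1qa on none, and they summed to 4250 to 4422 in Nup98::Nsd1 cells and 3827 to 4000 in mock cells. Adgre1 and Csf1r were called higher and Cd68 lower. Of 3 measured erythroid markers 1 was Present on all 6, and they summed to 372 to 419 in Nup98::Nsd1 cells and 475 to 551 in mock cells. Of 3 endothelial markers 1, Pecam1, was Present on all 6 and Kdr on none, with sums of 1970 to 2196 in Nup98::Nsd1 cells and 2774 to 3144 in mock cells. The part of these cell types in the results was not tested. The arrays measure bulk RNA, so a change in the share of cells that express a gene and a change in its RNA per cell cannot be told apart.

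Of the 17 member probe sets, 12 were Present on all 6 arrays and 2 were Absent on all 6. In all, 15 had 3 Present calls in at least one group and entered the fit over 20494 probe sets. The fit called 14 of the 17 member probe sets higher in Nup98::Nsd1 cells and 0 lower, and it called 42.3% of all tested probe sets higher. With a change of at least 2-fold besides, it called 10 member probe sets, and 12.8% of all tested ones. The arrays of the groups did not overlap, with Nup98::Nsd1 higher, at 14 member probe sets and at 44.4% of all tested ones. As the members were chosen on this contrast, nothing is read from these counts.

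**Figure D1:**
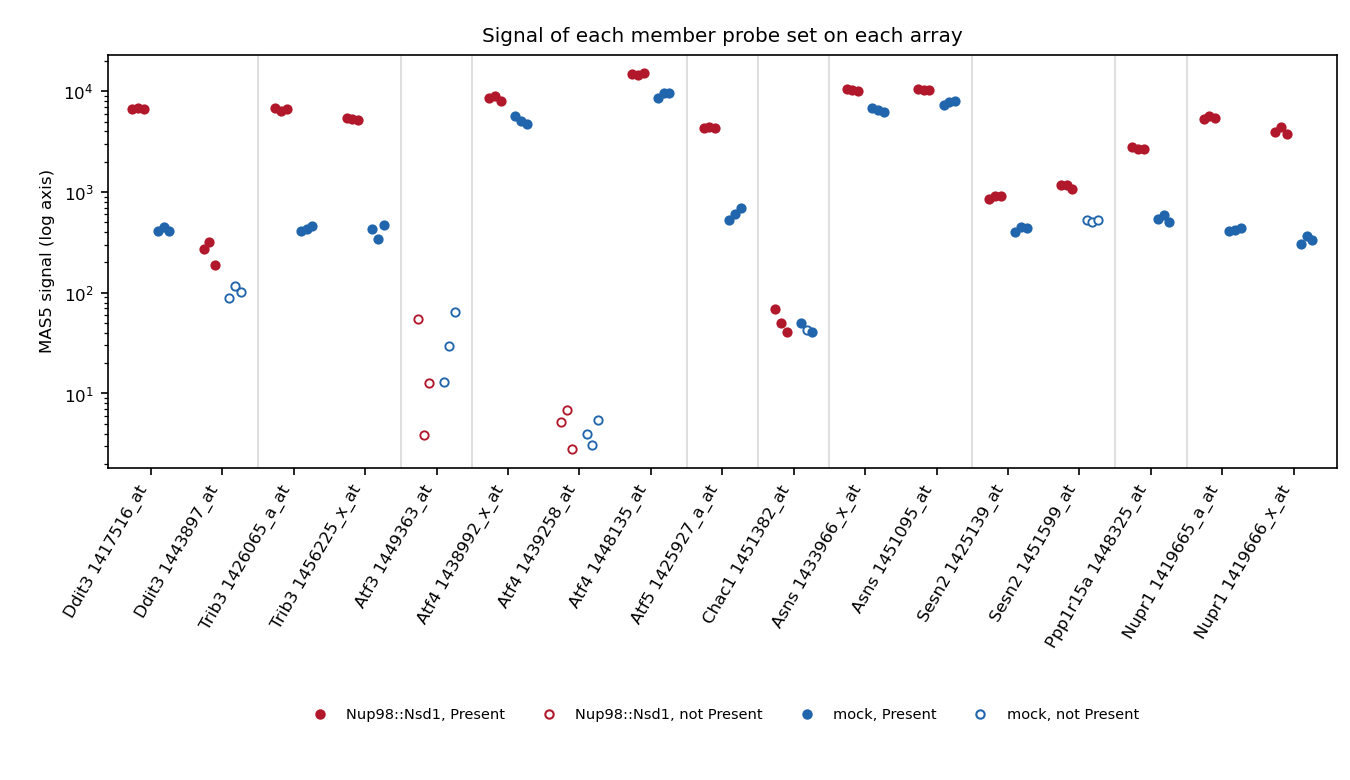
MAS5 signal (log axis) of the 17 member probe sets on each array, with Nup98::Nsd1 arrays in red to the left of mock arrays in blue and open circles for signals not called Present. Red and blue points lie apart at 14 probe sets and overlap at Atf3, Chac1 and the dimmest Atf4 probe set.

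Atf4 encodes the transcription factor at the centre of the response, and its mRNA was moderately higher in Nup98::Nsd1 cells. Its brightest probe set, 1448135_at, gave signals of 14778, 14608 and 15101 in Nup98::Nsd1 cells and of 8628, 9703 and 9621 in mock cells. The second, 1438992_x_at, gave 8582, 8988 and 8005 in Nup98::Nsd1 cells and 5698, 5117 and 4713 in mock cells. At both, every Nup98::Nsd1 array lay above every mock array, with log2 fold changes of 0.67 (SE 0.049) and 0.72 (SE 0.066), or 1.59-fold and 1.65-fold. These values shrank to 0.31 and 0.36 when arrays were scaled to the hybridization controls. The remaining probe set, 1439258_at, was Absent on all 6 arrays, with signals of 2.79 to 6.91 in Nup98::Nsd1 cells and 3.10 to 5.42 in mock cells, and carries no information on Atf4.

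Of the transcriptional regulators that act below ATF4, Ddit3, Atf5 and Nupr1 were much higher in Nup98::Nsd1 cells, while Atf3 was not detected. Ddit3 encodes CHOP, a C/EBP-family factor linked to cell death under prolonged stress. Its probe set 1417516_at gave 6663, 6832 and 6762 in Nup98::Nsd1 cells and 407, 453 and 415 in mock cells. The lowest Nup98::Nsd1 array stood 14.7 times above the highest mock array, and the mean difference was 15.9-fold (log2 fold change 3.99, SE 0.054). The second Ddit3 probe set, 1443897_at, gave 271, 321 and 189 in Nup98::Nsd1 cells and 87.9, 117 and 102 in mock cells, where it was Absent on every array. The groups did not overlap there either. With each Absent mock signal taken as an upper bound, the fold as deposited was at least 2.50 (log2 fold change 1.32, SE 0.20). The log2 fold changes of the 2 Ddit3 probe sets as deposited differed by 2.67. With quantile normalization they were 3.96 and 0.94.

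Atf5, a bZIP factor that like ATF4 is controlled through upstream reading frames and is known for the mitochondrial branch of the stress response, had 1 probe set, 1425927_a_at. It gave 4333, 4477 and 4343 in Nup98::Nsd1 cells and 528, 600.4 and 697 in mock cells. The groups lay well apart, at 7.25-fold (log2 fold change 2.86, SE 0.083).

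Nupr1 encodes a small stress-induced chromatin protein. At 1419665_a_at it gave 5332, 5675 and 5465 in Nup98::Nsd1 cells and 415, 424 and 443 in mock cells, 12.8-fold higher (log2 fold change 3.68, SE 0.052). At 1419666_x_at it gave 3918, 4402 and 3793 in Nup98::Nsd1 cells and 303, 364 and 337 in mock cells, 12.1-fold higher (log2 fold change 3.59, SE 0.079). The groups lay apart at both probe sets, whose fold changes differed by 0.089 on the log2 scale. The letter x in a probe set name marks probes that may match other transcripts as well.

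Atf3 encodes a bZIP factor that responds early to many stresses. Its 1 probe set, 1449363_at, was Absent on all 6 arrays, with 54.8, 3.87 and 12.8 in Nup98::Nsd1 cells and 12.9, 29.9 and 65.1 in mock cells. The groups overlapped and the probe set was not tested, so no difference could be detected and no level is assigned to the gene.

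The members that feed back on the response or on growth control were also higher in Nup98::Nsd1 cells. Trib3 encodes a pseudokinase that is induced by ATF4 and CHOP, restrains both and binds the kinase AKT. It gave 6900, 6440 and 6715 in Nup98::Nsd1 cells and 414, 426 and 462 in mock cells at 1426065_a_at. At 1456225_x_at it gave 5413, 5368 and 5235 in Nup98::Nsd1 cells and 433, 343 and 470 in mock cells. The lowest Nup98::Nsd1 signal lay 13.9 times and 11.1 times above the highest mock signal at these probe sets. The mean differences were 15.4-fold (log2 fold change 3.95, SE 0.056) and 13.0-fold (log2 fold change 3.70, SE 0.094).

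Ppp1r15a encodes GADD34, the inducible subunit that directs a phosphatase to eIF2. At 1448325_at it gave 2779, 2677 and 2656 in Nup98::Nsd1 cells and 544, 587 and 509 in mock cells. The arrays lay apart by group, at 4.95-fold (log2 fold change 2.31, SE 0.063).

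Sesn2, one of the sestrins, which sense leucine and hold back the growth kinase mTORC1, was about 2-fold higher. At 1425139_at it gave 857, 912 and 921 in Nup98::Nsd1 cells and 401, 452 and 439 in mock cells (log2 fold change 1.06, SE 0.076). At 1451599_at it gave 1177, 1167 and 1067 in Nup98::Nsd1 cells and 523, 502 and 525 in mock cells (log2 fold change 1.14, SE 0.067). Every mock signal at 1451599_at was called Absent. With these signals taken as upper bounds, its fold as deposited was at least 2.20. With hybridization control scaling its log2 fold change was 0.77. The groups did not overlap at either probe set.

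Among the detected members, Asns and Chac1, which encode enzymes, had the smallest log2 fold changes at their brightest probe sets. Asns encodes asparagine synthetase, a classical target of ATF4 under amino acid shortage. At 1451095_at it gave 10535, 10220 and 10283 in Nup98::Nsd1 cells and 7261, 7824 and 8001 in mock cells, 1.35-fold higher (log2 fold change 0.43, SE 0.044). At 1433966_x_at it gave 10475, 10231 and 10073 in Nup98::Nsd1 cells and 6773, 6537 and 6278 in mock cells, 1.57-fold higher (log2 fold change 0.65, SE 0.041). The groups lay apart at both, but with scaling to the hybridization controls the log2 fold changes were 0.063 and 0.29.

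Chac1 encodes an enzyme that breaks down glutathione and is often used as a readout of ATF4 and CHOP activity. At 1451382_at it was dim in both groups, with 69.6, 50.2 and 41.2 in Nup98::Nsd1 cells and 50.2, 42.3 and 40.7 in mock cells, and was Present on all Nup98::Nsd1 arrays and on 2 mock arrays. The groups overlapped and the fit did not call it (log2 fold change 0.25, SE 0.30, or 1.19-fold). Its direction also turned, to -0.090 with quantile normalization and to -0.12 with scaling to the hybridization controls. Of the 5 members with the composite core in the promoters printed above, Trib3, Nupr1 and Asns were higher and Atf3 and Chac1 overlapped between the groups, while the 5 without it, Ddit3, Atf5, Ppp1r15a, Sesn2 and Atf4, were all higher at their brightest probe set. Trib3 and Chac1 had no core in the 150 bases before the start.

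**Figure D2:**
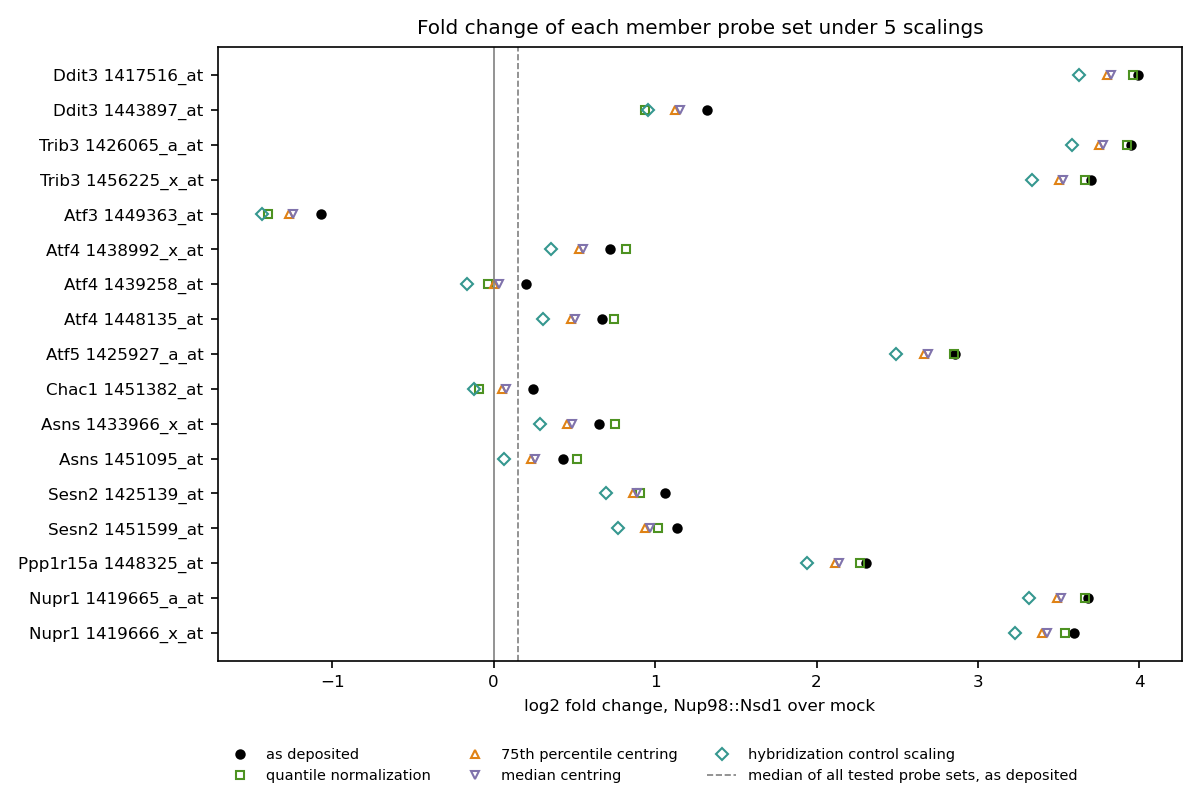
Log2 fold change (Nup98::Nsd1 over mock) of each member probe set with the signals as deposited and under 4 other scalings. The dashed line marks 0.15, the median of all tested probe sets as deposited. Both Trib3 and both Nupr1 probe sets and the brighter one of Ddit3 stay above 3 under every scaling, while Chac1 and the Absent Atf4 probe set cross 0.

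Over the 10 genes, each at its brightest probe set and Atf3 included, the median log2 fold change was 1.72. Centring on the 75th percentile gave 1.53, and scaling to the hybridization controls gave 1.36. As deposited, the median of all tested probe sets was itself 0.15, and it was -0.21 with hybridization control scaling. At these brightest probe sets 6 of the 10 genes were at least 2-fold higher in Nup98::Nsd1 cells: Ddit3, Trib3, Nupr1, Atf5, Ppp1r15a and Sesn2. Of all tested genes 9.53% were called higher and at least 2-fold, and nothing is read from the members' count, since they were chosen on this contrast. Sesn2 was under 2-fold with 75th percentile centring (log2 fold change 0.94), median centring (0.97) and hybridization control scaling (0.77). Among all 20494 tested probe sets ordered by log2 fold change, Ddit3 stood at ranks 31 and 1455, Trib3 at 33 and 45, Nupr1 at 48 and 56, Atf5 at 129 and Ppp1r15a at 245. Lower in that order came Sesn2 at 2059 and 2355, Atf4 at 4329 and 4722, Asns at 4870 and 6950, and Chac1 at 9067.

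Genes with a pattern like that of Ddit3 and Trib3 were looked for by the root mean square difference of log2 signals over the 6 arrays, each gene centred on its mock mean. Trib3 and Ddit3 were nearest to each other among 9641 genes (0.087). As both were chosen with their differences on these arrays known, nothing is read from their closeness. Next to Ddit3 came Car13, a carbonic anhydrase (0.18, 771 ± 34.2 in Nup98::Nsd1 cells and 53.9 ± 7.40 in mock cells, where it was Present on 1 array), and Nupr1 (0.23). Next to Trib3 came Angptl6, an angiopoietin-like secreted protein (0.17, 1481 ± 33.5 in Nup98::Nsd1 cells and 111 ± 15.5 in mock cells, where it was Present on no array), and Car13 (0.18). The distances of Car13 and Angptl6 thus rest on mock signals mostly or wholly not called Present. With 3 arrays a group this measure mostly orders genes by the size of the difference between the groups.

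The other genes of the response were taken from 8 lists of 100 genes in all, written from general knowledge of the pathway. Earlier results of these data were known when the lists were chosen, so their counts and p-values are given as a description. Of the 100 genes, 97 had a probe set of their own and 84 were tested, each at its brightest tested probe set. In limma's test with Benjamini-Hochberg adjustment over all tested probe sets, 59 of the 84 rose in Nup98::Nsd1 cells and 17 fell. Of all 9641 tested genes, 42.9% rose and 29.5% fell. The median log2 fold change was 0.52 over the 84 genes and 0.12 over all tested genes. With hybridization control scaling 38 rose and 30 fell, at a median of 0.15 over the 84 genes and of -0.25 over all tested genes.

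Of 17 tested genes for eIF2 kinases, eIF2, its exchange factor eIF2B and their regulators, 7 rose and 6 fell (median log2 fold change 0.086), shares close to the 42.9% and 29.5% of all tested genes. With hybridization control scaling 1 rose and 10 fell. Eif2b1, a regulatory subunit of eIF2B, fell to 937 ± 33.8 in Nup98::Nsd1 cells, against 1791 ± 56.6 in mock cells (log2 fold change -0.94, adjusted p = 4.07e-08). Eif2s3x, the gamma subunit of eIF2, fell to 5662 ± 83.7, against 10120.2 ± 353 in mock cells (log2 fold change -0.84, adjusted p = 9.67e-09), and fell at its other probe sets too. Gcn1, which helps the kinase GCN2 sense stalled translation, rose to 833 ± 34.7, against 432 ± 68.2 in mock cells (log2 fold change 0.96, adjusted p = 7.1e-06), but its other tested probe set was not called.

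The bZIP genes whose products pair with or resemble ATF4 and CHOP rose at all 6 that were tested (median log2 fold change 0.94), and at 4 with hybridization control scaling. Cebpg, the usual C/EBP partner of ATF4, rose 3.22-fold, with 4509 ± 80.2 in Nup98::Nsd1 cells and 1402 ± 46.5 in mock cells (adjusted p = 1.56e-10), and its other probe sets rose as well. Fos, an AP-1 subunit, rose 5.96-fold (adjusted p = 1.46e-09) and Jdp2, a bZIP repressor, 2.08-fold (adjusted p = 5.87e-09). Jun and Maff were Present on no array and were not tested.

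Among other stress and cell-death targets of ATF4 and CHOP, 9 of 11 tested genes rose and 1 fell (median log2 fold change 1.04), against 8 and 1 with hybridization control scaling. Gadd45b was the 1 that fell (log2 fold change -0.36), and Bcl2l11 was not called (0.12). At its other tested probe sets Bcl2l11 stood at -0.97 and -0.52, both called, and 0.12, not called. Gadd45a, a growth-arrest gene, rose 3.87-fold, with 4628 ± 104 in Nup98::Nsd1 cells and 1197 ± 45.3 in mock cells (adjusted p = 7.11e-11). Sqstm1, an autophagy receptor, rose 3.09-fold (adjusted p = 6.34e-11), and Ddit4, an inhibitor of mTORC1, 2.71-fold (adjusted p = 2.97e-10). Vldlr and Fgf21, 2 further targets, were Present on no array. Stc2 and Tnfrsf10b, a death receptor induced by CHOP, were Present on 1 array at most.

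Genes for amino acid supply rose in part. Of 9 tested enzymes 6 rose and 2 fell (median log2 fold change 0.72), against 6 and 3 with hybridization control scaling. Pck2, the mitochondrial enzyme that makes phosphoenolpyruvate, rose 2.65-fold, with 7309 ± 169 in Nup98::Nsd1 cells and 2763 ± 76.7 in mock cells (adjusted p = 2.92e-10). Shmt2, of mitochondrial one-carbon metabolism, rose 1.66-fold (adjusted p = 3.46e-08) and Aldh18a1, of proline synthesis, 1.65-fold (adjusted p = 4.48e-08). The other tested Shmt2 probe sets rose less, with log2 fold changes of 0.16 and 0.37. Psat1 and Psph, both of serine synthesis and chosen here because they were the 2 that fell, stood at log2 fold changes of -0.24 and -0.54. The other tested Psat1 probe set rose, and the mean of both was 0.010 and not called (adjusted p = 0.801).

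All 8 tested amino acid transporters rose as deposited and under each of the 4 other scalings (median log2 fold change 0.75 as deposited). Slc7a5, the leucine transporter, rose 1.68-fold, with 5971 ± 63.8 in Nup98::Nsd1 cells and 3547 ± 81.5 in mock cells (adjusted p = 1.78e-08). Slc38a2, which carries small neutral amino acids, rose 1.68-fold (adjusted p = 4.1e-08) and Slc7a1, which carries arginine and lysine, 1.67-fold (adjusted p = 1.28e-07). The other tested Slc38a2 probe sets stood at log2 fold changes of 0.82, called, and 0.35, not called. Of the genes for aminoacyl-tRNA synthetases and tRNA export, all 13 rose as deposited (median log2 fold change 0.36), against 9 with 75th percentile or median centring. With hybridization control scaling 5 rose and 4 fell. When all tested probe sets of a gene were averaged, 12 rose and 1 was not called. Sars1, the seryl-tRNA synthetase, rose 3.50-fold, with 11320 ± 121 in Nup98::Nsd1 cells and 3233 ± 170.1 in mock cells (adjusted p = 8.84e-11). Aars1, for alanine, rose 2.06-fold (adjusted p = 3.26e-09) and Wars1, for tryptophan, 1.99-fold (adjusted p = 1.49e-08).

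The IRE1 and ATF6 branches of the unfolded protein response, which share the endoplasmic reticulum signal with the eIF2 kinase PERK, had 17 tested genes. Of these 8 rose and 8 fell (median log2 fold change -0.0022), beside 42.9% and 29.5% of all tested genes. Scaled to the hybridization controls, 5 rose and 11 fell. Ern1, which encodes the sensor IRE1, rose 2.56-fold (adjusted p = 3.23e-08), and the sensor gene Atf6 rose 2.42-fold (adjusted p = 2.5e-08). Eif2ak3, which encodes PERK, was not called and its groups overlapped (log2 fold change 0.086, adjusted p = 0.264). Sdf2l1, a chaperone cofactor of the endoplasmic reticulum, fell to 1890 ± 160.4 in Nup98::Nsd1 cells, against 6018 ± 191 in mock cells (log2 fold change -1.67, adjusted p = 1.18e-09).

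Of 3 tested paralogues of the members 2 rose and 0 fell, and with hybridization control scaling 1 rose and 1 fell. Chac2, which encodes another glutathione-degrading enzyme, rose 2.47-fold, with 2884 ± 222 in Nup98::Nsd1 cells and 1169 ± 117 in mock cells (adjusted p = 4.66e-08). Sesn1 rose by 0.51 on the log2 scale (adjusted p = 0.000955), a call that ended with hybridization control scaling, where it stood at 0.14 (adjusted p = 0.302). Without Nup98::Nsd1 replicate 3 or without mock replicate 1, a different Sesn1 probe set became the brightest, and it was not called. It stood at log2 fold changes of 0.12 (adjusted p = 0.162) and 0.081 (adjusted p = 0.292). These values do not show whether the call at the first probe set held there. Without Nup98::Nsd1 replicate 2 Sesn1 stood at 0.18 and was called higher (adjusted p = 0.026). Of the other 3 tested Sesn1 probe sets, 2 were not called. Sesn3, the other tested one, stood at 0.027 and was not called, but was below 0 under each of the 4 other scalings and was called lower with hybridization control scaling (-0.34, adjusted p = 0.0281). Trib1 was Present on no array and Trib2 on 1, and neither was tested.

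**Figure D3:**
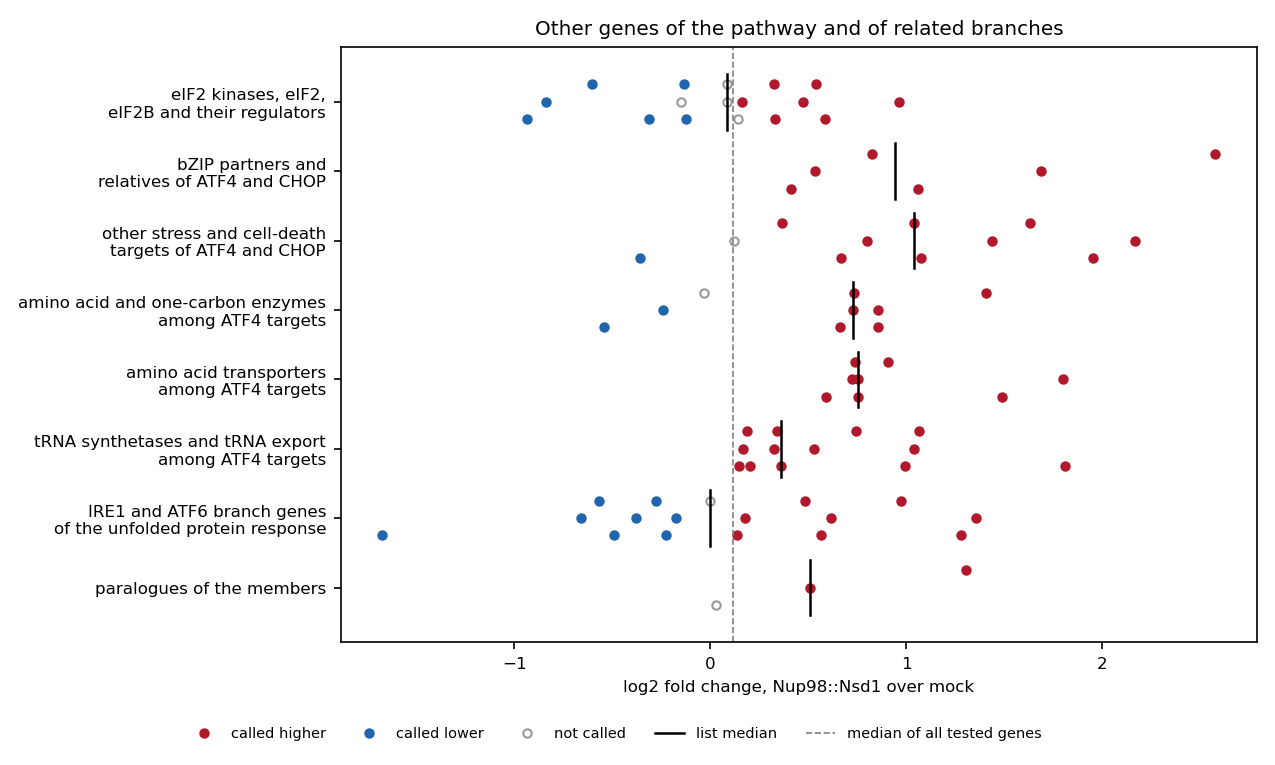
Log2 fold change (Nup98::Nsd1 over mock) of the 84 tested genes of the 8 lists, 1 point per gene at its brightest tested probe set, in red where it rose, blue where it fell and open grey where it was not called. Black bars mark the list medians, from -0.0022 for the IRE1 and ATF6 branch to 1.04 for other stress and cell-death targets, and the dashed line the median of all tested genes, 0.12.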

How the data were processed

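Total RNA was labelled with a 3′ in vitro transcription kit, per the labels' protocols, and hybridised to 1 array per sample. The authors deposited MAS5 signals, an intensity on a linear scale, with a detection call and a detection p-value per probe set. MAS5 is named in the submitters' processing notes, without version, scaling target or trimming. Signals below 1 were raised to 1 and log2 was taken, with no rescaling. Probe sets with 3 Present calls in a group (20494) were fitted in limma 3.58.1 (R 4.3.3, intensity trend), with Benjamini-Hochberg adjustment and a threshold of 0.05. Fold changes are Nup98::Nsd1 over mock. Symbols came from the platform annotation, updated through Entrez identifiers, and a gene stands at its brightest tested probe set. The number of arrays limits the precision. Members and lists were chosen with earlier results of these data known.

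The text names every member. From each list it names up to 3 called genes with the smallest p, and for Ddit3 and Trib3 the 3 nearest genes. The code for the fit was tested on simulated data. The other settings tried were 16 or 64 added to signals, no detection filter or Present on all 6 arrays, 4 other scalings, the matrix of the series, no trend, a replicate block, averaging all probe sets of a gene, and leaving out each array. Not analysed here were genome sequence outside the promoter table and proteins.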

Additional observations from a re-analysis of the deposited data

How the results depend on the processing

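With hybridization control scaling, the wider lists had 38 genes called higher and 30 lower in place of 59 and 17, and the members' median log2 fold change was 1.36 in place of 1.72, against 1.53 with 75th percentile centring. The cause was not tested. The share of all calls that were higher was 60.5% as deposited. Quantile normalization gave 49.7%, centring on the median 47.1%, centring on the 75th percentile 44.8%, and the hybridization controls 32.3%. The composite motif core was in 5 members, and in 3 with the 150 bases before the start, a shorter window by construction. Leaving out 1 array at a time gave 13461 to 13856 called probe sets in place of 14335, 56 to 59 list genes called higher, 15 to 17 called lower, and a members' median of 1.70 to 1.75. Replicate numbers are shared by the groups, but deviations of same-numbered arrays correlated at only -0.017, -0.011 and 0.021. With the replicate number as a block 14257 probe sets were called, with 59 list genes higher and 16 lower. No called member probe set changed direction under any setting. Of the values of list genes named by the rule, 411 kept direction and call and 3, all of Sesn1, lost the call. Sesn1 lost it with hybridization control scaling. It also lost it without Nup98::Nsd1 replicate 3 and without mock replicate 1, where a different probe set of the gene was the brightest. Without Nup98::Nsd1 replicate 2 it dropped to 0.18 but kept the call. Of 6 list genes named outside the rule and followed through all settings, Psat1 turned to 0.010 with the mean of its probe sets. Sesn3, never called higher, was 0.027 as deposited, -0.22 with quantile normalization, -0.17 on the 75th percentile, -0.14 on the median, -0.34 with hybridization controls, -0.029 with the mean of its probe sets and -0.076 to 0.14 with 1 array left out, the lowest without Nup98::Nsd1 replicate 2. Gcn1 dropped to 0.45 with the mean of its probe sets. Dim signals set the limit of detection, as for Atf3 and Chac1.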

Other observations

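Some list genes outside the rule for naming, picked after their values were seen, had large changes. Bbc3, which encodes the death-promoting protein PUMA and is a target of both p53 and CHOP, rose by 2.16 on the log2 scale, to 2044 ± 33.0 in Nup98::Nsd1 cells, against 458 ± 47.4 in mock cells (SD, n = 3 each; limma adjusted p = 1.1e-09). Slc7a11, the cystine importer that feeds glutathione synthesis, rose by 1.80, to 285 ± 31.8 in Nup98::Nsd1 cells, against 82.6 ± 17.6 in mock cells (limma adjusted p = 4.01e-06). The other tested Slc7a11 probe set rose by 0.93. Slc6a9, a glycine transporter, rose by 1.49 (limma adjusted p = 2.03e-07).

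The 3′ probe set of the added control transcript dap gave 4695 to 4758 on the Nup98::Nsd1 arrays and 2813, 2654 and 6621 on the mock arrays, where replicate 3 stood apart.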
